A study of Rattus norvegicus with 10 samples.

Results

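The genes described here are 8 genes of cholesterol synthesis and its feedback control in rat liver, Hmgcs1, Idi1, Fdps, Fdft1, Sqle, Lss, Cyp51 and Insig1. They were taken by name, and every array probe whose RefSeq accession carries one of these symbols was used, giving 14 of the 41012 probes and 8 of the 13832 genes that could be named. All 8 passed the filter on dim probes, and each of the 14 probes was detected (well above background) on each of the 10 arrays. The set had been proposed as cholesterol synthesis and LDL uptake, but none of the 8 is an uptake gene: 7 are enzymes of synthesis and Insig1 is a sterol sensor.

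Liver RNA from 10 male Wistar rats was hybridised to 1-colour Agilent arrays, 1 array per rat. The 5 DEN/TAA rats had received diethylnitrosamine (DEN), a DNA-alkylating liver carcinogen, as 1 intraperitoneal dose of 200 mg/kg when 6 weeks old. Thioacetamide (TAA), a hepatotoxin that scars the liver, followed at 200 mg/kg, starting 2 weeks after DEN, with each cycle made of 3 weeks of dosing and 1 week of rest. The 5 control rats received vehicle only. The labels give 23 weeks both as the length of treatment and as the age of every rat, so the duration is not settled. The series presents the protocol as a model of cancer in a cirrhotic liver, and nothing in the labels says whether the tissue sampled was tumour or surrounding liver.

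Hepatocytes make cholesterol from acetyl-CoA through mevalonate, isoprenoid diphosphates, squalene and lanosterol. When sterols run low in the endoplasmic reticulum, the SCAP protein carries the transcription factor SREBP2 to the Golgi for cleavage, and the released factor switches on nearly every gene of the pathway. When sterols are plentiful, INSIG proteins hold SCAP back in the endoplasmic reticulum. Insig1 is itself a target of SREBP, so its mRNA usually follows that of the enzymes.

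Promoter windows in the RefSeq table of assembly GRCr8, each 250 bases before to 50 bases after the gene's start, were found for 6 of the 8 genes. Those of Hmgcs1 (chr2:53382054-53382353, plus strand), Fdps (chr2:176804767-176805066, minus strand), Insig1 (chr4:8057720-8058019, minus strand) and Idi1 (chr17:66547475-66547774, minus strand) are shown because the first 3 belong to genes that fell and the last to a gene that parted from them. Capitals mark the box of NF-Y, a factor that binds beside SREBP at many sterol-regulated promoters, written CCAAT or, on the other strand, ATTGG.
Hmgcs1: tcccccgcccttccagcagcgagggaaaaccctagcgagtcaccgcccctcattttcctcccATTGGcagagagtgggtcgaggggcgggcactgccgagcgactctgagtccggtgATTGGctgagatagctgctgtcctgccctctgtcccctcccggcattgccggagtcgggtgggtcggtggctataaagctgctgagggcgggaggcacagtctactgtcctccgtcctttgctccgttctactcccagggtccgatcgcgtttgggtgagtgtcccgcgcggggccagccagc
Fdps: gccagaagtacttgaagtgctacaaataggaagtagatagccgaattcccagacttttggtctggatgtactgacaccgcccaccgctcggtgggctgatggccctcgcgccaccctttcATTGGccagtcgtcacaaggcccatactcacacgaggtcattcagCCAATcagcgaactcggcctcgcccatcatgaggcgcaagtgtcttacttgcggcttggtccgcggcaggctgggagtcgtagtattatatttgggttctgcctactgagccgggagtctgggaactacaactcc
Insig1: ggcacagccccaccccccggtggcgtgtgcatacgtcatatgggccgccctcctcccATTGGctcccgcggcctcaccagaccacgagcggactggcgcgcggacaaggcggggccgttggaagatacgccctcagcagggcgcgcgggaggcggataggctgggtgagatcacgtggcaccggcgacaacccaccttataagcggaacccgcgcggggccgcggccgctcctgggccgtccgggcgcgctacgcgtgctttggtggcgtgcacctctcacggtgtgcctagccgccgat
Idi1: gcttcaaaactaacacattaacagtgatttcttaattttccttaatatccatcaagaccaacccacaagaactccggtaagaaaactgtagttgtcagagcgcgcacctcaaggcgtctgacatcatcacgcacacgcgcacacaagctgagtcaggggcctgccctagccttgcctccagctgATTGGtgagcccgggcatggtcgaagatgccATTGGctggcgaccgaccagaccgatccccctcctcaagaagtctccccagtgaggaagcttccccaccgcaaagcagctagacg
The NF-Y box was present on either strand in 5 of the 6 windows, against 37.5% of all 33469 windows of this length. It lay at positions -188 and -133 from the start in Hmgcs1, -130 and -85 in Fdps, -193 in Insig1 and -66 and -35 in Idi1. The letters GGCGGG, found within GC boxes of Sp1 and searched on both strands, were present in 4 of the 6 windows, against 32.0% of all windows. Other spellings of the GC box, GGGCGG among them, were not counted. The sterol regulatory element pattern TCACNCCAC, also searched on both strands, was present in 0 of the 6 windows and in 1.12% of all windows. None of the 3 motifs is contained in another, and a window without these letters says nothing of SREBP binding.

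The 8 genes did not move as a block. In DEN/TAA livers Insig1, Fdps, Hmgcs1 and Fdft1 fell by 1.75-fold to 2.29-fold relative to control, while Idi1 and Sqle averaged above control without passing the test. None of the 4 falls was called when the arrays were scaled on spike-in RNA. Idi1 and Sqle parted from Hmgcs1, Fdps, Fdft1, Cyp51 and Insig1 in the log ratio within an array, which such scaling cannot change. All values below are log2 signal after scaling each array to the 75th percentile of its detected probes, so 0 is the level of that percentile and levels are compared only within a probe. In the limma fit over all 6854 genes, 4 of the 8 were lower and 0 were higher at an adjusted p under 0.05, and their median difference was -0.80. Over all genes tested, 16.3% were lower and 39.2% higher, 55.5% in all, and the median difference was 0.33. The filter also kept genes detected only on the 5 DEN/TAA arrays. Among genes detected on all 10 arrays, as the 8 were, 944 were lower and 1152 higher, with a median of 0.10. In that fit 5 of the 8 were lower. The share of all genes lower in that fit was not computed, so the 5 of 8 has no share to be set against. Groups did not overlap for 1 of the 8, with DEN/TAA lower, against 39.5% of all genes in either direction and 11.4% with DEN/TAA lower.

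Hmgcs1 makes HMG-CoA, the precursor of mevalonate. Its signal was 0.85, -0.13, 0.27, -0.48 and 1.03 in DEN/TAA rats 1 to 5 and 0.53, 0.69, 1.32, 1.63 and 2.02 in control rats 1 to 5. The groups overlapped: DEN/TAA rats 1 and 5 lay above the lowest control rats. The means were 0.31 ± 0.64 in DEN/TAA and 1.24 ± 0.63 in control livers (SD, n = 5 each), a difference of -0.93 (SE 0.35, limma adjusted p = 0.0414), or 52.5% of the control level. The call was lost when DEN/TAA rat 2, 3 or 4 or control rat 3, 4 or 5 was left out, with adjusted p up to 0.103. It was also lost with quantile normalisation (-0.91, limma adjusted p = 0.0532) and without the 2 dimmest control arrays (-0.90, limma adjusted p = 0.0601). The second probe of the gene gave -0.89 in the fit over all probes (limma adjusted p = 0.0524), where the first gave -0.93 (limma adjusted p = 0.0472).

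Idi1 isomerises isopentenyl diphosphate to its reactive partner dimethylallyl diphosphate. It read 0.45, -0.48, -0.28, -0.48 and 0.25 in DEN/TAA rats 1 to 5 and -0.59, -0.86, -0.21, -0.43 and -0.41 in control rats 1 to 5. DEN/TAA rats 1 and 5 lay above every control rat, and the other 3 lay within the control range. The difference of 0.39 (SE 0.22, 95% interval -0.08 to 0.86) did not pass the test (limma adjusted p = 0.147), and the second probe gave 0.55. Fdps joins these units into farnesyl diphosphate, the branch point to sterols, dolichol and prenylated proteins. It read 1.90, 0.85, 1.00, 0.65 and 1.34 in DEN/TAA rats 1 to 5 and 2.77, 1.39, 2.02, 2.46 and 1.92 in control rats 1 to 5. Only DEN/TAA rat 1 reached into the control range, above control rat 2. The difference was -0.97 (SE 0.29, limma adjusted p = 0.0149), or 51.2% of control, and both probes of the gene passed the test, at -0.97 and -0.93. The call was lost with array weights (-0.77, limma adjusted p = 0.0602) and without the 2 dimmest control arrays (-0.81, limma adjusted p = 0.0568).

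Fdft1, squalene synthase, commits farnesyl diphosphate to sterols. Its signal was -3.04, -4.35, -3.89, -4.35 and -3.57 in DEN/TAA rats 1 to 5 and -2.69, -3.51, -2.96, -2.70 and -3.28 in control rats 1 to 5. DEN/TAA rat 1 again overlapped the control rats, while rats 2 to 5 lay below all of them. The difference was -0.81 (SE 0.27, limma adjusted p = 0.0248), or 57.1% of control. It no longer passed without DEN/TAA rat 2 or 4 or control rat 1 or 4 (limma adjusted p up to 0.0652), nor with slide as a block (limma adjusted p = 0.051). The call was also lost with array weights (-0.69, limma adjusted p = 0.093) and without the 2 dimmest control arrays (-0.78, limma adjusted p = 0.0657).

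Sqle, squalene epoxidase, carries out the first oxygen-requiring step and is a point of control in the pathway. It read -0.57, -1.73, -1.59, -1.67 and -1.06 in DEN/TAA rats 1 to 5 and -1.34, -2.48, -1.87, -1.34 and -2.18 in control rats 1 to 5. DEN/TAA rats 1 and 5 exceeded every control rat and the other 3 lay inside the control range. The difference was 0.52 (SE 0.29, 95% interval -0.11 to 1.15, limma adjusted p = 0.146). Lss closes squalene epoxide into lanosterol, the first sterol of the route. It read -3.07, -3.61, -3.86, -3.72 and -3.72 in DEN/TAA rats 1 to 5 and -2.04, -3.70, -3.13, -4.81 and -2.67 in control rats 1 to 5. The SD was 0.31 in DEN/TAA rats and 1.05 in control rats, whose range enclosed every DEN/TAA value. The difference of -0.33 (SE 0.42, 95% interval -1.25 to 0.60) did not pass the test (limma adjusted p = 0.538).

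Cyp51 removes the first methyl group of lanosterol. It read -0.82, -1.90, -1.54, -2.11 and -0.94 in DEN/TAA rats 1 to 5 and -0.03, -0.90, -0.75, -0.11 and -1.54 in control rats 1 to 5. Control rat 5 and DEN/TAA rat 3 read the same -1.54, and the difference of -0.79 (SE 0.33, 95% interval -1.52 to -0.07) missed the threshold (limma adjusted p = 0.0613). It passed when DEN/TAA rat 1 or 5 or control rat 5 was left out, with limma adjusted p of 0.0385, 0.0431 and 0.0157. With all 10 rats it passed under another background correction (normexp, limma adjusted p = 0.0459), quantile normalisation (0.0473) and the percentile over all probes (0.022). It also passed in the authors' table (0.0421), with a filter on all 10 arrays (0.0475) and with a trended robust prior in limma (0.0458). It did not pass with scaling on spike-ins or hepatocyte markers, array weights, slide or replicate block, no filter or the mean over probes.

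Insig1, the sterol sensor that anchors SCAP, had the largest difference of the 8. Its signal was 1.18, 0.63, 0.34, 0.19 and 1.30 in DEN/TAA rats 1 to 5 and 1.69, 1.76, 1.53, 2.08 and 2.55 in control rats 1 to 5. Every DEN/TAA rat lay below every control rat. The means were 0.73 ± 0.50 in DEN/TAA and 1.92 ± 0.41 in control livers (SD, n = 5 each), a difference of -1.19 (SE 0.26, limma adjusted p = 0.0026), or 43.7% of control. All 4 of its probes passed in the fit over all probes, in which 13.7% of 14276 probes were lower, with differences of -1.39, -1.19, -1.40 and -1.54. For 2 of these 4 probes the highest DEN/TAA rat lay above the lowest control rat. The Insig1 call held in each of the 10 fits that left out 1 rat, with limma adjusted p between 0.00149 and 0.00823.

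Each of the 3 slides held rats of both groups, and the 4 falls could be followed within them. Insig1 differed by -0.82, -1.26 and -1.01 within slides 1, 2 and 3, and Fdps by -0.70, -1.20 and -0.86. Hmgcs1 differed by -0.25, -1.42 and -0.80, and Fdft1 by -0.59, -1.15 and -0.57. The DEN/TAA mean was lower for these 4 genes on every slide, with Hmgcs1 closest to no difference on slide 1. These are means of 1 or 2 rats per group, and single rats overlapped. On slide 1 DEN/TAA rat 1 lay above both control rats for Hmgcs1, and above control rat 2 for Fdps and Fdft1. With slide as a block the limma adjusted p of Insig1 was 0.00086, and the fitted differences of the others were -0.89 for Fdps, -0.74 for Hmgcs1 and -0.75 for Fdft1. The DEN/TAA mean of Sqle was higher on every slide, at 0.76, 0.24 and 0.70, and that of Idi1 on 2 of 3, at 0.71, -0.17 and 0.66.

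**Figure D1:**
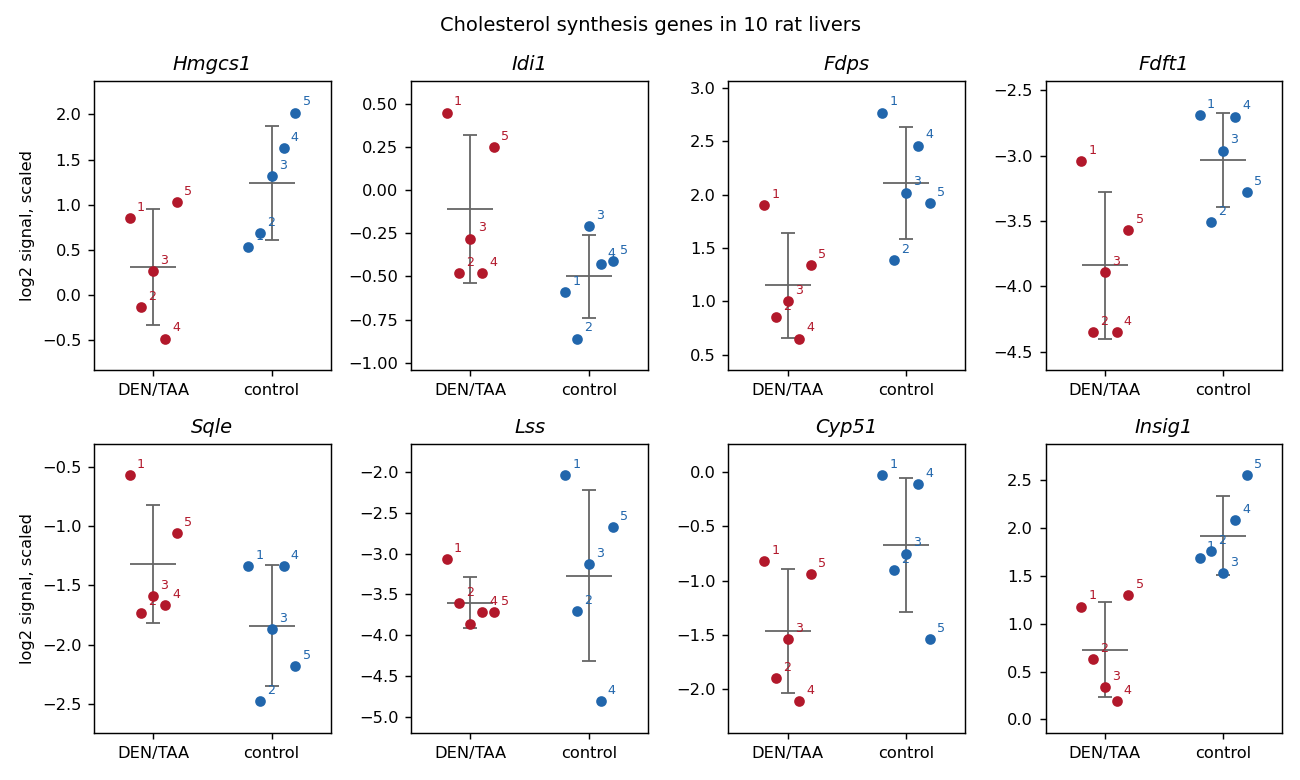
Each panel plots 1 gene's scaled log2 signal (vertical axis) in 5 DEN/TAA rats (left) and 5 control rats (right), numbered by replicate, with the group mean and SD as a horizontal mark and bars. Insig1 is the only gene of the 8 whose groups do not overlap, and the control rats of Lss spread from -4.81 to -2.04.

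Because the 8 genes moved by different amounts, each of the 28 pairs was compared through the log ratio of its 2 genes within an array, a quantity that scaling an array by a constant does not change. In 10 pairs the change differed by an exact permutation test over rats, two-sided, adjusted over the 28 pairs. All 10 set Idi1 or Sqle against Hmgcs1, Fdps, Fdft1, Cyp51 or Insig1. The 10 pairs thus restate the changes of Idi1 and Sqle and are not separate results. The share of such pairs among all genes was not computed. Idi1 moved up relative to Fdps by 1.35, to Fdft1 by 1.20, to Cyp51 by 1.18 and to Insig1 by 1.58, without overlap between the groups (exact permutation p = 0.00794, the smallest that 5 against 5 rats allow, adjusted p = 0.0247 for each). The change of Hmgcs1 minus that of Idi1 was -1.32, with the same p. Sqle moved up relative to Cyp51 by 1.31 and to Insig1 by 1.71, while Fdps minus Sqle was -1.48 and Fdft1 minus Sqle was -1.33, each again at the smallest p. Hmgcs1 minus Sqle was -1.45 with overlapping groups (exact permutation p = 0.0159, adjusted p = 0.0444).

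Idi1 and Sqle did not part from each other at this sample size, at -0.13 for Idi1 minus Sqle (exact permutation p = 0.563, adjusted p = 0.657). No pair among Hmgcs1, Fdps, Fdft1, Cyp51 and Insig1 passed either, with changes that differed by -0.17 to 0.40. Lss passed against no other gene. All 10 called pairs kept their sign within each of the 3 slides, at sizes from 0.78 to 1.71. For the 9 pairs without overlap between the groups, the sign within slides or with rats left out was fixed in advance and adds nothing. With other background correction, normalisation, probe choice, source of values or rats left out, 9 to 12 pairs passed and the 10 kept their sign throughout. The plot of differences in change shows these 10 pairs as the blocks of Idi1 and Sqle.

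**Figure D2:**
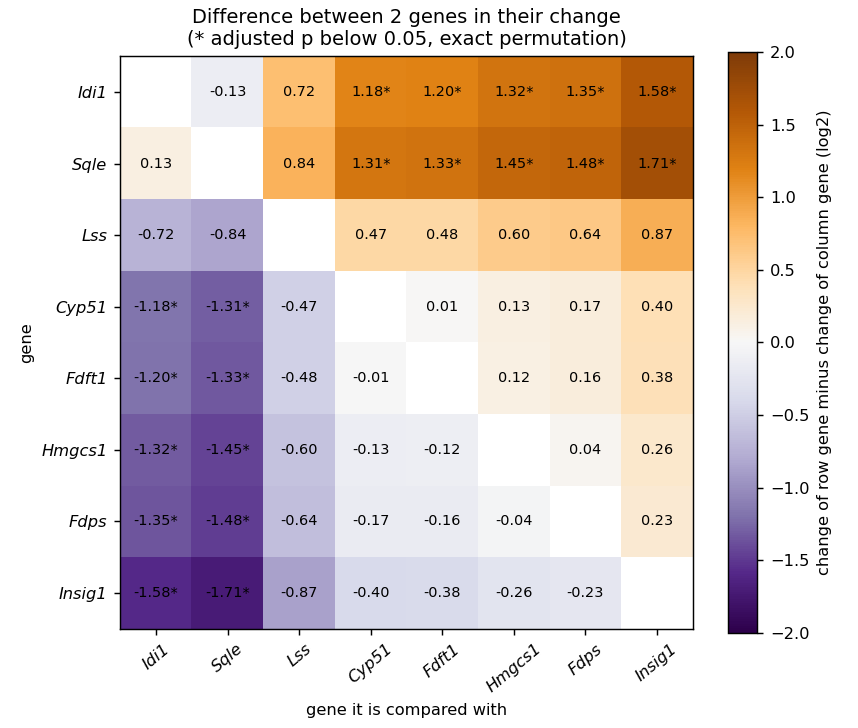
Each cell gives the log2 change (DEN/TAA minus control) of the row gene minus that of the column gene, so positive cells mean that the row gene moved up relative to the column gene, and asterisks mark pairs with an adjusted p under 0.05. The Idi1 and Sqle rows run from 1.18 to 1.71 against Cyp51, Fdft1, Hmgcs1, Fdps and Insig1.

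The genes were then set among the other 14 enzymes of the pathway, of which 13 were measured. Of these, 7 fell, 1 rose and 5 did not pass, beside 16.3% of all genes lower and 39.2% higher. Their median difference was -0.86. With spike-in scaling 4 were lower, beside 5.78% of all genes. Pmvk, phosphomevalonate kinase, fell by 1.83 (SE 0.24), Nsdhl, a sterol dehydrogenase, by 1.43 (SE 0.19) and Ebp, the sterol isomerase, by 1.82 (SE 0.15), each without overlap. The limma adjusted p was 6.06e-05 for Pmvk, 7.47e-05 for Nsdhl and 2.57e-06 for Ebp. Tm7sf2, a sterol reductase, fell by 2.36, Sc5d, a sterol desaturase, by 1.31, and Hsd17b7, a sterol ketoreductase, by 0.86. Those that did not pass were Acat2 at -0.64, Mvk at -0.56, Mvd at -0.39, Msmo1 at 0.11 and Dhcr7 at -0.05.

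**Figure D3:**
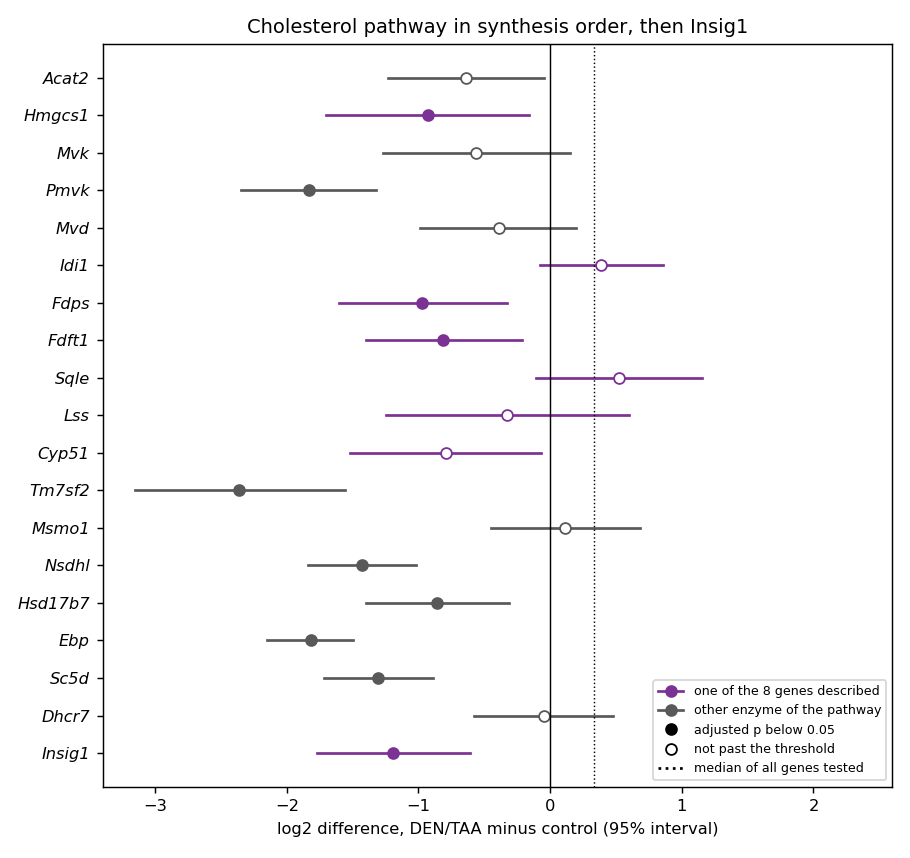
Points give the log2 difference (DEN/TAA minus control, 95% interval as lines) of the enzymes described, in the order of synthesis, followed by Insig1. Purple marks the 8 genes described and filled points passed an adjusted p of 0.05. Sqle is the highest at 0.52 and Tm7sf2 the lowest at -2.36.

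Of the genes that process SREBP or sense sterols, 11 of 16 were measured, 4 fell and 1 rose, and the median was -0.12. Over all genes 16.3% were lower and 39.2% higher, with a median of 0.33. Insig2, the constitutive relative of Insig1, fell by 1.92 (SE 0.40, limma adjusted p = 0.00174), so both anchors of SCAP were lower in mRNA. Scap itself fell by 0.53 (SE 0.19, limma adjusted p = 0.03), a call lost in 5 of 10 fits that left out 1 rat. Srebf2, the gene of SREBP2, was above background on 4 of 5 DEN/TAA and 1 of 5 control arrays and gave 0.06 (SE 0.31, limma adjusted p = 0.88). With normexp Srebf2 was called lower, at -1.04 (limma adjusted p = 0.0167), so its direction is not settled. Tmem97, a sterol-responsive membrane protein, fell by 0.55, and Nr1h3, the oxysterol receptor LXR alpha, by 0.44, and both calls were lost in 3 of 10 such fits. With spike-in scaling Scap, Tmem97 and Nr1h3 gave 0.13, 0.11 and 0.22. Mylip, a ubiquitin ligase and LXR target, was at least 1.13-fold higher and above background on no control array.

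The uptake and lysosomal release list, which the proposed name of the set would cover, had 13 of 17 genes measured. Of these, 3 were higher and 3 lower, with a median of -0.05, beside 39.2% of all genes higher and 16.3% lower. Lrp1, a receptor for remnant lipoproteins, fell by 1.74 (SE 0.22), and Npc1, which exports cholesterol from lysosomes, by 1.04 (SE 0.16, -0.38 and not called with spike-in scaling). Another probe of Npc1, above background on every array, gave -1.24. A dimmer Npc1 probe, above background on 5 DEN/TAA arrays and 1 control array, gave -0.09. Stard4, a cholesterol carrier, fell by 1.59 (SE 0.26) and was above background on only 4 of 5 DEN/TAA and 3 of 5 control arrays. Scarb2 rose by 1.18, Lipa, the lysosomal lipase that frees cholesterol from LDL, by 0.55 (a call lost in 6 of 10 fits that left out 1 rat, and at 0.24 with the percentile over all probes), and Sort1 was at least 1.29-fold higher. Under another background correction (normexp) the call of Scarb2 was lost (0.40, limma adjusted p = 0.226), and the differences were -0.36 for Sort1 and -0.49 for Mylip.

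Further from the 8 genes, the branches that use isoprenoid diphosphates for other ends had a median of 0.45 over 10 measured genes, 4 higher and 3 lower. Over all genes 39.2% were higher and 16.3% lower, with a median of 0.33, so the 4 of 10 higher were near the share of all genes. Trit1, a tRNA isopentenyl transferase that draws on the product of Idi1, rose by 1.15 (-0.16 with normexp), while Dolk, dolichol kinase, fell by 0.75 (-0.09 with spike-in scaling). Fnta, a subunit of the farnesyl and geranylgeranyl transferases, differed by 0.52, a call lost with normexp (0.02), quantile normalisation (0.19), the percentile over all probes (0.21) and the authors' table (0.15). Among esterification, efflux and breakdown genes, 6 of 10 fell and 2 rose, with a median of -1.25. Lcat, which esterifies plasma cholesterol, fell by 1.40 and Cyp8b1 of bile acid synthesis by 3.06, while Abcg1, a cholesterol exporter, rose by 2.16. Fatty acid and NADPH genes, which answer mainly to the sister factor SREBP1, had a median of -2.26, with 7 of 10 lower and 2 higher. Scd, the stearoyl-CoA desaturase, fell by 5.34 (SE 0.63), Thrsp by 3.59 (SE 0.49), and Fasn, the fatty acid synthase, differed by -2.60 (SE 0.39), against -1.19 for Insig1, the furthest of the 8.

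Rats of the same group differed, and the 8 genes shared part of that spread. With each group's own mean subtracted, the average over the 8 genes was 0.63, -0.32, -0.18, -0.48 and 0.35 in DEN/TAA rats 1 to 5 and 0.29, -0.45, 0.00, 0.10 and 0.05 in control rats 1 to 5. DEN/TAA rats 1 and 5 were thus high for the 8 genes, and DEN/TAA rat 4 and control rat 2 low. Arrays of DEN/TAA rats 1 and 5 also had the highest 75th percentiles, 12.69 and 12.60, against 11.89 to 12.17 in DEN/TAA rats 2 to 4. Among control rats the percentile was 11.20 in rat 2, which had the lowest average, and 11.18 in rats 3 and 4. It was 10.79 in rat 1, whose average was 0.29, and 9.58 in rat 5, whose average was 0.05. The part of array brightness was not tested. Over the 10 rats Pearson's r between these deviations lay between 0.82 and 0.97 for the 6 pairs of Fdps, Fdft1, Sqle and Cyp51. Fdps and Sqle had the highest, at r = 0.97 and rho = 0.98, and 0.96 without the 2 rats farthest from the median. Sqle varied with Fdps from rat to rat, while Fdps minus Sqle changed by -1.48 between the groups. Hmgcs1 paired with Insig1 at r = 0.84 and with Idi1 at 0.79, and pairs with Lss ran from -0.12 to 0.30.

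These values describe 10 rats and share an array's scaling error, which moves all genes of an array together. Over 6848 genes the median r with the average of the 8 genes was 0.00, and 1.43% of genes reached 0.7, against 7 of the 13 other measured enzymes. Without the 2 rats farthest from the median, 3.80% of genes and 3 of the 13 enzymes did, namely Msmo1 (0.87), Sc5d (0.81) and Nsdhl (0.78). The 5 most alike genes outside the 8 were Msmo1 (r = 0.88, rho = 0.92), the sterol oxidase after Cyp51, Tmem97 (r = 0.86, rho = 0.83), Aspdh (r = 0.85, rho = 0.82), Tmpo (r = 0.84, rho = 0.94) and Tmem175 (r = 0.84, rho = 0.83). In the authors' table Msmo1 and Tmem97 gave 0.92 and 0.89, while Tmpo and Tmem175 gave 0.54 and 0.37, and Tmem175 was above background on 0 control arrays. The brightest probe of Hmgcs1 and its second probe shared only r = 0.38, and the brightest Insig1 probe shared 0.43 to 0.64 with the other 3, which shared 0.94 to 0.97 among themselves. The r of 0.84 between Hmgcs1 and Insig1 was that of their brightest probes, and the other 7 combinations of their probes gave 0.12 to 0.44.

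**Figure D4:**
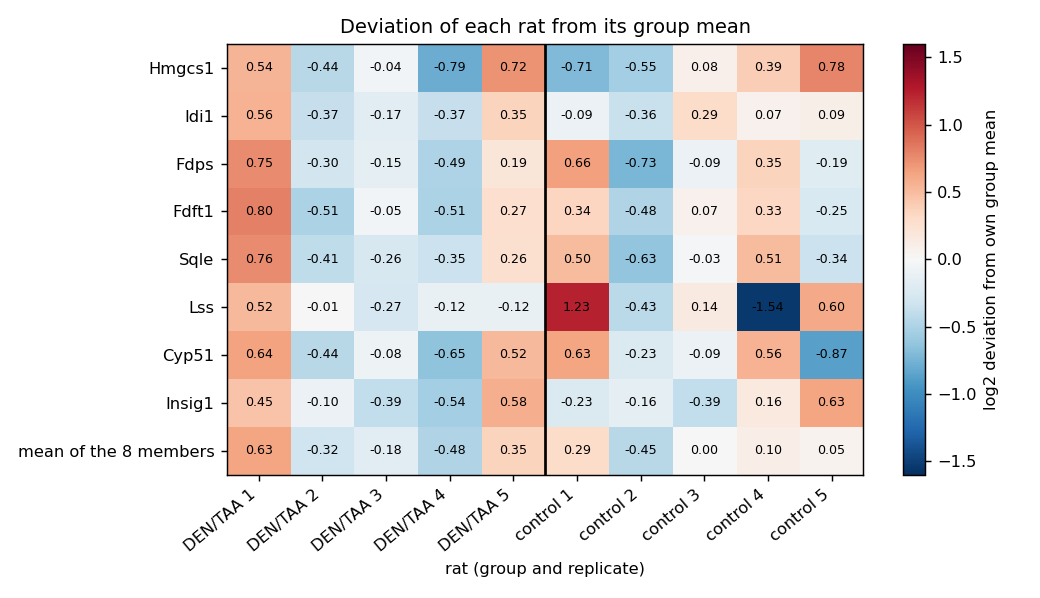
Colour and number give each rat's log2 deviation from its own group's mean, with genes as rows and the 5 DEN/TAA rats left of the 5 control rats. DEN/TAA rat 1 is high in all 8 genes, from 0.45 to 0.80, and control rat 4 is at -1.54 in Lss alone.

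The arrays limit how the falls may be read. The DEN/TAA arrays had 36.1% to 46.6% of spots above background, against 16.5% to 32.9% of control arrays, and their 5 brightest spike-in probes read 13.60 to 14.07 against 12.42 to 13.46 on the log2 scale. Scaled on those spike-in probes, 0 of the 8 genes were lower and 2 were higher, Idi1 by 1.05 (limma adjusted p = 0.0079) and Sqle by 1.18 (limma adjusted p = 0.0147), where 5.78% of all genes were lower and 64.8% higher. That scaling moved the median of all genes to 0.99. Set against the median of all genes, the differences under 6 scalings lay between -1.52 and -0.89 for Insig1, -1.29 and -0.63 for Fdps, -1.26 and -0.61 for Hmgcs1, 0.06 and 0.65 for Idi1 and 0.16 and 0.57 for Sqle. Subtracting that median cancels a constant per array, so both percentile scalings and the spike-in scaling gave the same values. The median also depended on the filter. Without a filter on dim probes it was -0.50. Insig1, Fdps and Hmgcs1 then lay -0.70, -0.47 and -0.43 from it, Idi1 0.88 and Sqle 1.01. Without control rats 5 and 1, the dimmest arrays, 2 of the 8 genes were lower, Insig1 at -1.06 and Cyp51 at -0.87, beside 16.2% of all genes lower and 37.9% higher.

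In whole liver, fewer cells of a type and less RNA per cell cannot be told apart. Of 8 hepatocyte markers 7 fell, beside 16.3% of all genes lower and 39.2% higher. The mean level of the 8 markers was 4.47 to 4.68 in DEN/TAA and 5.36 to 5.98 in control rats. Of the stellate cell markers 6 of 8 rose (-1.35 to -0.88 in DEN/TAA, -3.55 to -3.16 in control), and of the macrophage markers 7 of 9 rose and 1 fell (-1.04 to -0.48 in DEN/TAA, -2.90 to -1.73 in control). Of the endothelial markers 3 of 4 rose. Some markers were measured only through the DEN/TAA arrays and were above background on no control array: 4 of 5 biliary, 4 of 4 lymphocyte, 2 of 9 macrophage and 1 of 3 proliferation markers, so their control levels are bounds. The biliary mean level was -3.26 to -2.36 in DEN/TAA and -6.55 to -5.30 in control rats. With those genes at their bound, the median difference was 1.36 for the biliary and 0.45 for the lymphocyte markers, beside 0.33 for all genes. Pecam1 of endothelial cells and Cd3e, Cd2 and Cd79b of lymphocytes were above background on 0 arrays. Scaled on the hepatocyte markers, a choice made after the data were seen, the differences were -0.13 for Insig1, 0.10 for Fdps, 0.14 for Hmgcs1, 0.26 for Fdft1 and 0.27 for Cyp51, none past the threshold. Idi1 was then higher by 1.45 and Sqle by 1.58, and 4.19% of all genes were lower and 81.0% higher. The part of cell makeup in the 4 falls was not tested. The 10 pair differences above are by construction the same under scaling on percentiles, spike-ins or hepatocyte markers.

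**Figure D5:**
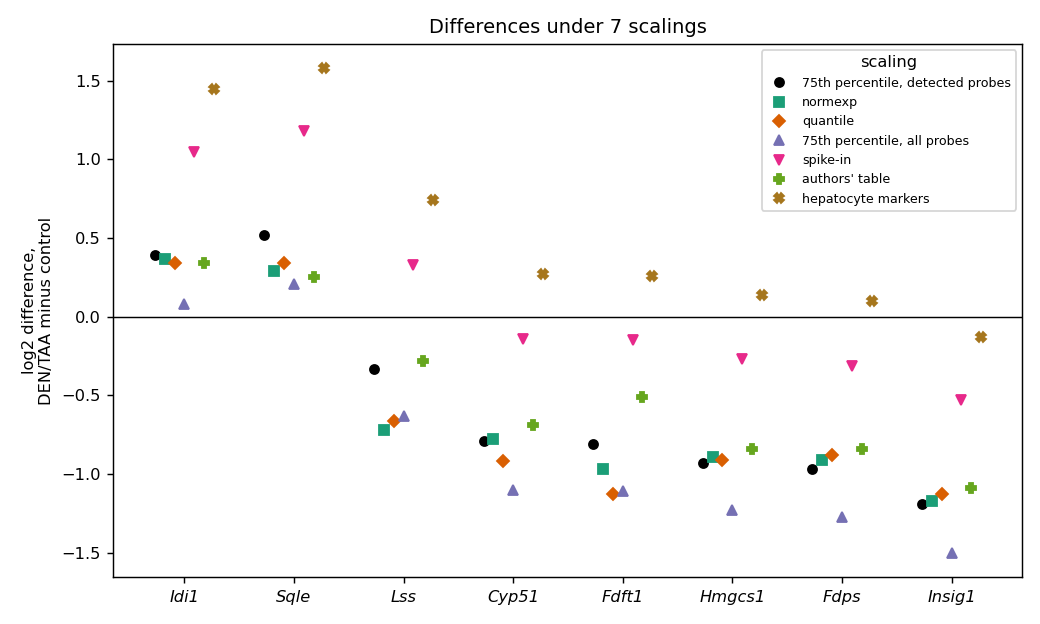
Each symbol gives the log2 difference (DEN/TAA minus control) of 1 gene under 1 of 7 ways of scaling the arrays. Insig1 runs from -1.50 to -0.13, while Idi1 and Sqle stay above 0 under all 7.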

How the data were processed

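Arrays were 1-colour Agilent whole rat genome 4x44K, with 150 ng of total RNA per array. The deposited files hold spot intensity from Agilent Feature Extraction (version 11.5.1.1 per the file headers, 15.5 per the submitters' processing notes), background-subtracted by that software. A deposited table of log2 values made by the authors was an alternative (how it was made: not given in the sources used here). From the intensity, log2 signals of spots of a probe were averaged, each array's 75th percentile over the 6228 probes detected on all 10 arrays was subtracted, and probes well above background on at least 5 arrays were kept, 1 per gene (the brightest). Probes were named through RefSeq accessions in assembly GRCr8: 17502 had 1 symbol, 0 several and 23510 none. Sequence shared with related genes was not examined. Differences, DEN/TAA minus control, were tested in R 4.3.3 using limma 3.58.1 (lmFit, eBayes, two-sided, Benjamini-Hochberg over 6854 genes, threshold 0.05), checked on simulated data. Pairs used exact permutation over 252 assignments. A gene detected on no array of a group is given as at least N-fold over the higher of its signal and the lowest detected signal. No spot was saturated. The labels number the treated rats as animals, and the number of arrays limits precision. The 8 genes and all lists were chosen with earlier results of these data known. Genes named are the 8, Srebf2 and Scap, up to 3 per list and direction by adjusted p, and the 5 most alike; other pathway genes were named to complete a list. Some genes that this rule or the lists hold stay in the counts and are not reported here. Slides held DEN/TAA rats 1 and 2 with control rats 1 and 2, DEN/TAA rats 3 and 4 with control rat 3, and DEN/TAA rat 5 with control rats 4 and 5.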

Additional observations from a re-analysis of the deposited data

Results flagged for a closer look

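In 2 of 86 groups (43 named genes in 5 rats each) 1 rat stood apart from the others by Dixon's ratio, where chance alone gives about 1 in 20 groups. Abcg1, the cholesterol exporter, read -2.13 in DEN/TAA rat 5, below the -1.54 to -1.31 of the other DEN/TAA rats. Fnta, the prenyltransferase subunit, read -3.28 in DEN/TAA rat 3, below the -2.78 to -2.69 of the other DEN/TAA rats. None of the 8 genes was marked in this way.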

How the results depend on the processing

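None of the 4 falls was called under 2 scalings of the arrays, and Hmgcs1 also lost its call with quantile normalisation. The cause of each change given here was not tested. Of the 8 genes, 0 were lower and 2 higher with spike-in scaling and with scaling on the hepatocyte markers, 2 were lower with array weights or without the 2 dimmest control arrays, and 4 with the replicate block. Of the other enzymes, 4 were lower with spike-in scaling, and 3 lower and 4 higher with the hepatocyte scaling. Of the uptake genes, 5 were lower and 1 higher with normexp, 6 higher with spike-ins, 6 lower without a filter, 1 higher with a filter on all 10 arrays, and 1 lower and 9 higher with the hepatocyte scaling. Over all genes, 1949 were lower and 883 higher with normexp, 1617 higher with the percentile over all probes, 396 lower and 4442 higher with spike-ins, 5800 lower without a filter, 1152 higher with a filter on all arrays, and 287 lower and 5551 higher with the hepatocyte scaling. Leaving out 1 rat in turn gave 2 to 5 of the 8 genes lower and 0 to 0 higher, 7 to 8 other enzymes lower and 1 to 1 higher, 3 to 4 uptake genes lower and 2 to 3 higher, 988 to 1143 genes lower and 2344 to 2689 higher, and 9 to 12 pairs. The count of 8 genes fell to 2 without DEN/TAA rat 2, DEN/TAA rat 4 or control rat 4. Signs turned with normexp for Srebf2 (-1.04), Mylip (-0.49), Sort1 (-0.36), Trit1 (-0.16) and Tmpo (-0.76), with quantile normalisation for Tmpo (-0.30), and with the percentile over all probes for Srebf2 (-0.24), Msmo1 (-0.20) and Tmpo (-0.26). They turned with spike-ins for Lss (0.33), Scap (0.13), Tmem97 (0.11), Nr1h3 (0.22), Icmt (0.08), Rabggta (0.15) and Tmem175 (0.63). Tmem175 also turned in the authors' table (0.05), with slide as a block (0.05, Srebf2 -0.08), with array weights (0.07) and without the 2 dimmest control arrays (0.09, Lss 0.28, Srebf2 -0.12). With the hepatocyte scaling the signs turned for Hmgcs1 (0.14), Fdps (0.10), Fdft1 (0.26), Lss (0.74), Cyp51 (0.27), Scap (0.53), Tmem97 (0.52), Nr1h3 (0.62), Npc1 (0.02), Dolk (0.31), Icmt (0.49), Rabggta (0.55) and Tmem175 (1.04). Leaving out 1 rat gave -0.11 to 0.31 for Srebf2, -0.05 to 0.21 for Msmo1, -0.06 to 0.16 for Tmpo and -0.14 to 0.07 for Tmem175. Same-numbered rats of the groups are not pairs: their deviations correlated at -0.22 to 0.20, 2 of 5 over 0.1, and the replicate block left 1121 genes lower and 2685 higher. Signal over background limits the dim genes: Mylip, Sort1 and Ch25h were above background on no control array.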
